A study of Mus musculus with 10 samples.

Results

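The genes of fatty acid and triglyceride synthesis were followed in mouse livers in which the Rab5 genes had been silenced. The set holds 33 genes, chosen by their known place in the pathway and with earlier results of these data known. Their probe sets were found by gene symbol in the platform annotation. Of the 33 genes, 32 had a probe set with a single symbol and 31 passed a filter on dim signals, among 12855 genes that passed it in all. Acsl1 was not analysed here, and Lpin3 was too dim. The livers came from male mice of the inbred strain C57BL/6 NHsd and were taken 5 days after an injection into the tail vein. For 2 samples the injection held phosphate-buffered saline (PBS) without nanoparticles, for 4 lipid nanoparticles with a control siRNA at 1.5 mg/kg, and for 4 lipid nanoparticles with siRNAs against all Rab5 genes at the same dose. The sample titles call the control RNA scrambled, whereas luciferase is given as its target in the study design. A single Rab5 siRNA treatment was used, so the loss of Rab5 and any further action of its siRNAs cannot be told apart.

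RNA of whole liver was hybridised to 10 Affymetrix 3′ expression arrays, and all values are the deposited log2 values. Within a group, the correlation of 2 arrays across genes was 0.98 to 0.99. The targets Rab5a and Rab5c were at 28.6% and 25.1% of the control siRNA signal, and the dim Rab5b changed by -0.24 (adjusted p = 0.194). The 7 hepatocyte markers measured of 8 listed had a mean log2 value of 12.48 to 12.79 in the Rab5 siRNA arrays. It was 12.76 to 12.93 in the control siRNA and 12.87 to 12.90 in the PBS arrays, and the part of this difference in the results was not tested. Against the control siRNA, 4 of the 7 markers were lower and 3 higher. Tdo2 had by far the largest change (-1.01), and the others lay between -0.35 (Cps1) and 0.18 (Apoa1). Rab5 siRNA replicate 1 lay nearer to the controls than the other Rab5 siRNA arrays on the first principal component, at 17.5 against 30.3 to 38.3. Replicate 2 of either siRNA group had the largest 3′ to 5′ difference of the Gapdh control probes in its group, a sign of RNA quality. On the log2 scale it was 2.86 for the control and 2.67 for the Rab5 siRNA array, against 2.19 to 2.38 in the other siRNA arrays. PBS replicate 2 stood at 2.58 and PBS replicate 1 at 2.15. The same difference for the actin control probes moved with the groups compared, at 2.59 to 2.75 in the Rab5 siRNA, 2.84 to 3.23 in the control siRNA and 2.83 to 3.13 in the PBS arrays, and its part in the results below was not tested. In whole tissue, fewer cells of a type and less RNA per cell cannot be told apart.

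The liver turns surplus carbohydrate into fat. Citrate leaves the mitochondria, is cleaved to acetyl-CoA and carboxylated to malonyl-CoA, and fatty acid synthase builds palmitate from these units with NADPH. Elongases and desaturases reshape the acyl chains, acyl-CoA synthetases activate them, and acyltransferases and a phosphatase join them to glycerol to give triglyceride. The transcription factors SREBP-1 (gene Srebf1), which responds to insulin, and ChREBP (gene Mlxipl), which responds to carbohydrate and acts with its partner Mlx, drive many of these genes in liver.

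Against the control siRNA, 11 of the 31 genes fell and 4 rose, while 16 did not pass. Called here means an adjusted p under 0.05 in limma across all genes. Among all 12855 genes, 23.3% were called in this comparison, 9.51% down and 13.8% up. The share of pathway genes that fell (35.5%) was above this background and the share that rose (12.9%) was near it. Because the set was chosen with earlier results of these data known, setting it beside the background is a description and not a test. The median change of the 31 genes was -0.18 on the log2 scale, and that of all genes 0.00. For 9 genes all Rab5 siRNA arrays lay below all control siRNA arrays (11.2% of all genes did so), and for 4 genes they lay above (13.8% of all genes). Leaving out replicate 2 of the control and of the Rab5 siRNA group, 9 genes were called, 4 up and 5 down. The share of all genes called in that fit was not counted, so these numbers have no background beside them. The falls were spread over the steps, from the factor Mlxipl through Acacb, Thrsp, Elovl6 and Scd1 to Dgat2, but several central enzymes, Acly, Acaca and Fasn among them, did not pass.

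**Figure D1:**
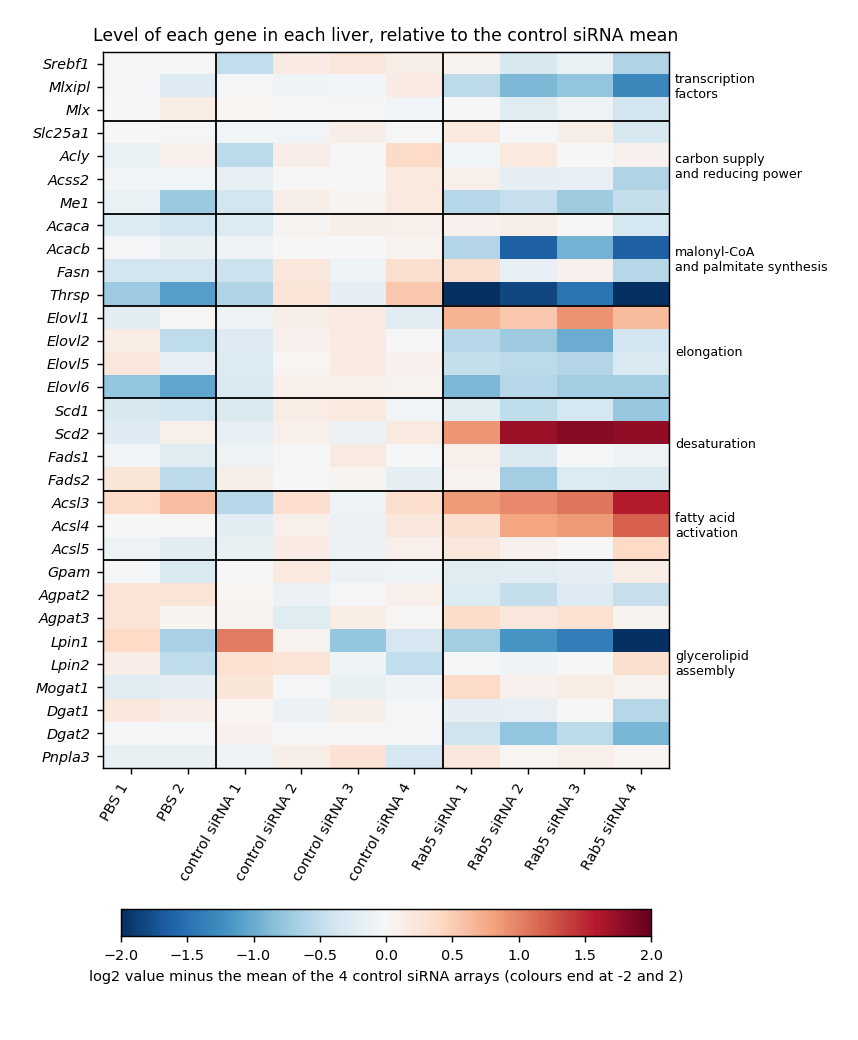
Colours give the log2 value of each gene (rows, grouped by role) in each of the 10 arrays (columns), minus the mean of the 4 control siRNA arrays of that gene. Thrsp, Acacb and Mlxipl are lowest in the Rab5 siRNA columns and Scd2, Acsl3, Acsl4 and Elovl1 highest there. Lpin1 is low in the Rab5 siRNA columns with overlap between the siRNA groups, and Elovl6 is low in the PBS and in the Rab5 siRNA columns.

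Of the transcription factors, Mlxipl fell and the other two did not pass. Mlxipl stood at 9.37, 9.31, 9.35 and 9.56 in the control siRNA arrays 1 to 4, at 8.87, 8.50, 8.61 and 8.11 in the Rab5 siRNA arrays and at 9.35 and 9.13 in the PBS arrays. Every Rab5 siRNA array lay below every array of both other groups. The change against the control siRNA was -0.88 (SE 0.142, adjusted p = 0.000584), which left 54.4% of the signal, and that against PBS was -0.72 (SE 0.174, adjusted p = 0.0114), a call that ended without PBS replicate 1 (adjusted p = 0.14). Its partner Mlx differed by -0.18 (95% interval -0.40 to 0.03, adjusted p = 0.213). Srebf1 stood at 8.40, 9.05, 9.11 and 9.00 with control siRNA and 8.96, 8.57, 8.76 and 8.28 with Rab5 siRNA, groups that overlap. Its difference was -0.25 (95% interval -0.61 to 0.12, adjusted p = 0.323).

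Carbon supply and reducing power were carried by 4 genes, of which 1 fell. Slc25a1, the mitochondrial citrate carrier, differed by -0.01 (95% interval -0.26 to 0.23, adjusted p = 0.954). Acly, which cleaves citrate to acetyl-CoA, differed by 0.06 (95% interval -0.29 to 0.40, adjusted p = 0.838), and Acss2, which makes acetyl-CoA from acetate, by -0.21 (95% interval -0.50 to 0.09, adjusted p = 0.306). The intervals of Slc25a1, Acly and Acss2 leave out a change of 2-fold in either direction, as in this fit do those of the other genes that did not pass. Me1, the cytosolic malic enzyme that supplies NADPH, stood at 8.55, 9.03, 8.96 and 9.12 with control siRNA, at 8.34, 8.45, 8.21 and 8.43 with Rab5 siRNA and at 8.79 and 8.17 with PBS. The siRNA groups did not overlap, and the PBS arrays spread from below the Rab5 siRNA arrays into the range of the controls. Me1 changed by -0.56 (SE 0.149, adjusted p = 0.0157) against the control siRNA and by -0.12 (95% interval -0.51 to 0.28, adjusted p = 0.73) against PBS. Without the arrays numbered 2 its adjusted p was 0.0751 and without Rab5 siRNA replicate 3 0.0519, and over all alternatives it ran from 0.00322 to 0.0751.

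At the committed steps the carboxylase Acacb and the small protein Thrsp fell, while Acaca and Fasn did not pass. Thrsp, also called Spot 14, is induced by thyroid hormone and carbohydrate and promotes lipogenesis. Its log2 values were 9.55, 10.41, 9.96 and 10.68 with control siRNA, 7.97, 8.33, 8.70 and 7.76 with Rab5 siRNA and 9.43 and 9.05 with PBS. The 3 groups did not overlap, and PBS lay between the others. Thrsp changed by -1.96 (SE 0.239, adjusted p = 6.48e-05) against the control siRNA, to 25.7% of the signal, and by -1.05 (SE 0.293, adjusted p = 0.0251) against PBS, a call that ended without either PBS array (adjusted p = 0.233 and 0.0667) and without Rab5 siRNA replicate 4 (adjusted p = 0.0569).

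Acacb makes malonyl-CoA at the outer mitochondrial membrane, where it restrains the entry of fatty acids for oxidation. It stood at 7.63, 7.70, 7.71 and 7.77 with control siRNA, 7.11, 6.08, 6.75 and 6.06 with Rab5 siRNA and 7.66 and 7.55 with PBS. The controls were tightly grouped, at 7.70 ± 0.0591 (SD, n = 4), and the Rab5 siRNA arrays lay lower and further apart, at 6.50 ± 0.52 (SD, n = 4), with replicates 2 and 4 lowest. The change was -1.20 (SE 0.195, adjusted p = 0.000591) against the control siRNA and -1.10 (SE 0.239, adjusted p = 0.00615) against PBS, where the call ended without PBS replicate 1 (adjusted p = 0.0703). Acaca, the cytosolic isoform that feeds fatty acid synthase, differed by -0.04 (95% interval -0.31 to 0.23, adjusted p = 0.857), an interval that leaves out a 2-fold change. Fasn, the synthase itself, stood at 8.69, 9.35, 9.02 and 9.45 with control siRNA, 9.45, 8.96, 9.21 and 8.56 with Rab5 siRNA and 8.76 and 8.74 with PBS, and the siRNA groups spanned nearly the same range. Its difference was -0.08 (95% interval -0.49 to 0.33, adjusted p = 0.801).

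The sequence before the transcript start is shown for the 3 genes of the lipogenic factors and committed steps that fell against the control siRNA, and for Fasn, which did not pass. The windows, from RefSeq on GRCm38.p6, run from 250 bases before to 50 bases after the annotated start. They are chr7:97417501-97417800, minus strand for Thrsp, chr5:114165268-114165567, plus strand for Acacb, chr5:135106641-135106940, plus strand for Mlxipl and chr11:120824498-120824797, minus strand for Fasn. Capitals mark matches, on either strand, to the NF-Y box CCAAT, whose reverse is ATTGG, or to the sterol regulatory element TCACNCCAC.
Thrsp: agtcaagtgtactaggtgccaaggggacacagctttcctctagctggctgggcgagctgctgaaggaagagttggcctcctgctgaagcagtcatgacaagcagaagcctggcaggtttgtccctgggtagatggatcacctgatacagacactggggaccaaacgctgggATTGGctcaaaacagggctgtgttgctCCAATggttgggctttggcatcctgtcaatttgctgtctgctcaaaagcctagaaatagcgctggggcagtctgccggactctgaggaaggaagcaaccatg
Acacb: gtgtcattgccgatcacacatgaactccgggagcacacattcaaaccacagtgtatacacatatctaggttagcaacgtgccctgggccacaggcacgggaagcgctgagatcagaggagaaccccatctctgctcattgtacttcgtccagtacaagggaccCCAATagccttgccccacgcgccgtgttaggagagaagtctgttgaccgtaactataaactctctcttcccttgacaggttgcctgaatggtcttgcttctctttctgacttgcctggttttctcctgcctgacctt
Mlxipl: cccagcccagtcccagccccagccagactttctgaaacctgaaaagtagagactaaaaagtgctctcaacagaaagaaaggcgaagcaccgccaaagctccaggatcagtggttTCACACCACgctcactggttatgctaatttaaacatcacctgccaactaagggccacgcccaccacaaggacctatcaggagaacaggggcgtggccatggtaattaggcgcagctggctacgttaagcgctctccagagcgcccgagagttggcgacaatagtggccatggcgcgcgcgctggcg
Fasn: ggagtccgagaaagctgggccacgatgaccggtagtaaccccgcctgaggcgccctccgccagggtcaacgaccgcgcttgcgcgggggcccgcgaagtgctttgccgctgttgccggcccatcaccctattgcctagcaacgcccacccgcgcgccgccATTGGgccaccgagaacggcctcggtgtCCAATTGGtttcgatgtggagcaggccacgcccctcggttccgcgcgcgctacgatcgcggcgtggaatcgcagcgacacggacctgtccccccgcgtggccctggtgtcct
NF-Y is a factor that works beside SREBP on many lipogenic promoters. Thrsp holds 2 boxes, which begin 79 and 52 bases before the start, Acacb holds 1, and Fasn holds 3, of which 2 overlap each other by 2 bases. Mlxipl holds the sterol regulatory letters TCACACCAC 136 bases before the start and no CCAAT. None of the 4 windows holds the E-box CACGTG, the core that ChREBP and Mlx bind. Of the 33 genes 28 have a window in the table. Of these, 15 hold CCAAT (53.6%), 5 CACGTG (17.9%, the dim Lpin3 among them) and 1, Mlxipl, the sterol regulatory letters (3.57%). The shares among all 27025 promoters were 37.9%, 7.24% and 1.22%. A match describes letters in this window and is not a measured site, and both Thrsp, which fell, and Fasn, which did not pass, hold a pair of CCAAT boxes or more. Sites with other letters or outside the windows were not searched, so a gene without a match is not shown to lack a site.

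**Figure D2:**
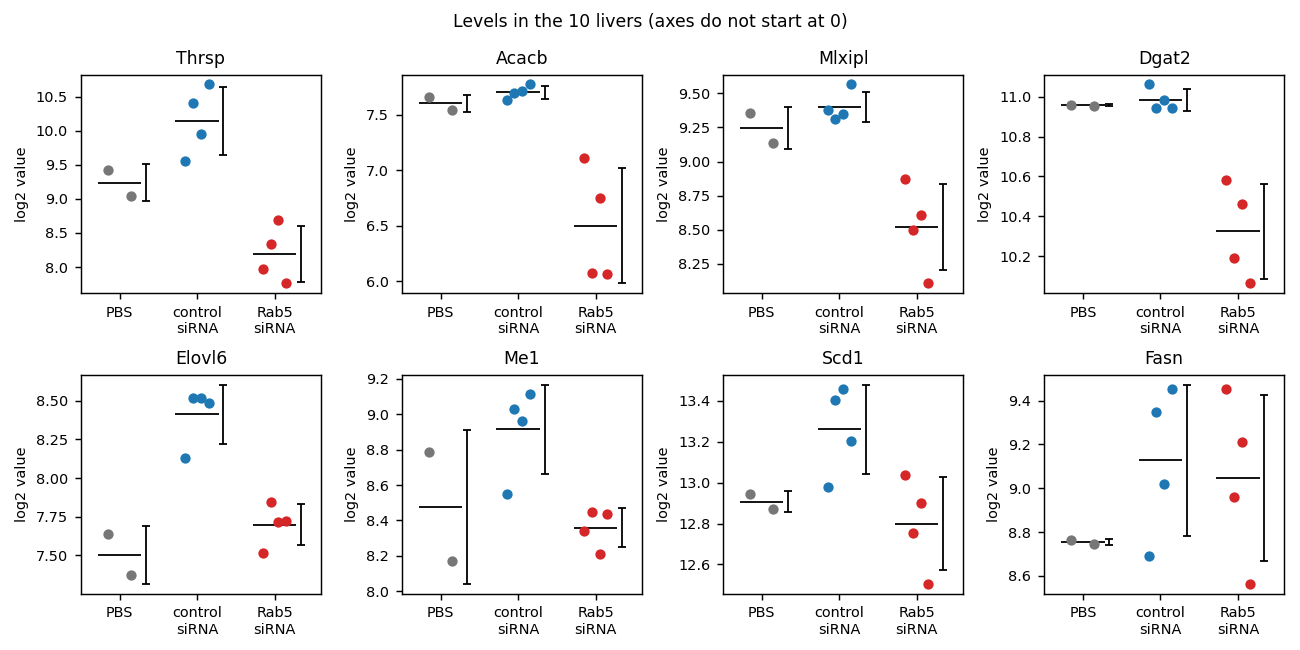
Each panel plots the log2 value of 1 gene in the 10 arrays by group, with the group mean (line) and SD (bar, n = 2 for PBS and n = 4 for each siRNA group). In Thrsp, Acacb, Mlxipl and Dgat2 the Rab5 siRNA arrays lie below the PBS and the control siRNA arrays, in Elovl6, Me1 and Scd1 they lie near the PBS arrays, and in Fasn the siRNA groups overlap.

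Elongases moved in opposite directions. Elovl6, which lengthens palmitate to stearate, stood at 8.13, 8.51, 8.52 and 8.49 with control siRNA, 7.52, 7.84, 7.72 and 7.72 with Rab5 siRNA and 7.64 and 7.37 with PBS. The controls lay above all other arrays, and the Rab5 siRNA and PBS arrays overlapped. Against the control siRNA Elovl6 changed by -0.71 (SE 0.118, adjusted p = 0.000699), and against PBS by 0.19 (95% interval -0.12 to 0.51, adjusted p = 0.422). The control siRNA arrays exceeded the PBS arrays by 0.91 (SE 0.145, adjusted p = 0.0899), so the fall of Elovl6 was measured against a control group that lay higher than saline.

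Elovl2, needed for the longest polyunsaturated fatty acids, stood at 9.80, 10.14, 10.22 and 10.06 with control siRNA and 9.49, 9.33, 9.07 and 9.68 with Rab5 siRNA, without overlap, and the PBS arrays, 10.20 and 9.56, spanned both. It changed by -0.66 (SE 0.16, adjusted p = 0.00852) against the control siRNA and by -0.49 (95% interval -0.91 to -0.06, adjusted p = 0.114) against PBS. Elovl5, which elongates polyunsaturated fatty acids, stood at 11.74, 12.06, 12.18 and 12.10 with control siRNA, 11.54, 11.49, 11.44 and 11.71 with Rab5 siRNA and 12.24 and 11.86 with PBS. All Rab5 siRNA arrays lay below all others, and the change was -0.47 (SE 0.122, adjusted p = 0.013) against the control siRNA and -0.50 (SE 0.149, adjusted p = 0.034) against PBS. The calls of Elovl2 and Elovl5 against the control siRNA ended without the arrays numbered 2 (adjusted p = 0.0648 and 0.0857), with ranges over all alternatives of 0.00165 to 0.0648 and 0.00255 to 0.0857. Elovl1, which acts on saturated and monounsaturated very long chains, rose. It stood at 8.98, 9.17, 9.22 and 8.85 with control siRNA, 9.75, 9.60, 9.95 and 9.69 with Rab5 siRNA and 8.83 and 9.07 with PBS, so the Rab5 siRNA arrays lay above all others. The change was 0.70 (SE 0.116, adjusted p = 0.000719) against the control siRNA and 0.80 (SE 0.142, adjusted p = 0.0016) against PBS.

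The stearoyl-CoA desaturases, which place the double bond of oleate, also split. Scd1, the main isoform of adult liver, stood at 12.98, 13.40, 13.46 and 13.20 with control siRNA, 13.04, 12.76, 12.90 and 12.51 with Rab5 siRNA and 12.94 and 12.87 with PBS. The siRNA groups overlapped, since control replicate 1 lay below Rab5 siRNA replicate 1. Scd1 changed by -0.46 (SE 0.133, adjusted p = 0.0237) against the control siRNA and by -0.11 (95% interval -0.46 to 0.24, adjusted p = 0.726) against PBS. The call was lost without control siRNA replicate 2 or 3 (adjusted p = 0.0675 and 0.0718), without Rab5 siRNA replicate 2 or 4 (0.062 and 0.0667) and without the arrays numbered 2 (0.141) and with its probe sets averaged (0.248) or the most variable one used (0.785), so that the range over all alternatives was 0.0035 to 0.785. Another Scd1 probe set differed by -0.09 (SE 0.193, adjusted p = 0.837).

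Scd2, an isoform known in mice from brain and from the liver before and around birth, rose 2.93-fold. It stood at 4.13, 4.39, 4.16 and 4.47 with control siRNA, 5.17, 6.01, 6.11 and 6.06 with Rab5 siRNA and 4.03 and 4.38 with PBS. Outside the Rab5 siRNA group it lay near the filter value of 4.33, where changes are compressed, and in that group replicate 1 was lowest. The change was 1.55 (SE 0.186, adjusted p = 5.84e-05) against the control siRNA and 1.63 (SE 0.228, adjusted p = 0.000284) against PBS. The other 2 Scd2 probe sets lay below the filter, with changes of 0.14 (SE 0.0975, adjusted p = 0.45) and -0.19 (SE 0.126, adjusted p = 0.427). Fads1 and Fads2, which desaturate polyunsaturated fatty acids, did not pass. Fads1 stood at 10.29, 10.37, 10.57 and 10.36 with control siRNA, 10.50, 10.11, 10.36 and 10.30 with Rab5 siRNA and 10.34 and 10.16 with PBS, in overlapping groups, a difference of -0.08 (95% interval -0.31 to 0.15, adjusted p = 0.643). Fads2 differed by -0.29 (95% interval -0.67 to 0.08, adjusted p = 0.257), and array weights brought it past the threshold (-0.48, adjusted p = 0.0456, with a range of 0.0456 to 0.647 over its alternatives).

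Among the acyl-CoA synthetases, which activate fatty acids, 2 of the 3 measured rose. Acsl3, an enzyme of the endoplasmic reticulum and lipid droplets, stood at 5.50, 6.40, 5.97 and 6.40 with control siRNA, 6.93, 7.03, 7.14 and 7.64 with Rab5 siRNA and 6.45 and 6.68 with PBS. The Rab5 siRNA arrays were above all others, and the PBS arrays were above all control siRNA arrays. Acsl3 changed by 1.12 (SE 0.199, adjusted p = 0.00119) against the control siRNA and by 0.62 (95% interval 0.09 to 1.14, adjusted p = 0.107) against PBS. Acsl4, which prefers arachidonate, stood at 7.20, 7.51, 7.28 and 7.64 with control siRNA, 7.73, 8.20, 8.25 and 8.61 with Rab5 siRNA and 7.41 and 7.43 with PBS, again with all Rab5 siRNA arrays highest. Its change was 0.79 (SE 0.162, adjusted p = 0.00316) against the control siRNA and 0.78 (SE 0.198, adjusted p = 0.0156) against PBS. The call against PBS ended without either PBS array (adjusted p = 0.113 and 0.0899). Acsl5, an isoform of liver and intestine, stood at 10.21, 10.51, 10.23 and 10.45 with control siRNA, 10.58, 10.43, 10.34 and 10.75 with Rab5 siRNA and 10.25 and 10.13 with PBS. Its siRNA groups overlapped, and the difference of 0.18 (95% interval -0.07 to 0.42, adjusted p = 0.302) did not pass.

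Markers of Kupffer cells, the resident macrophages of the liver, were followed in the same arrays. Of 13 listed markers 12 were measured, and 7 rose and 0 fell, where 13.8% of all genes rose and 9.51% fell, shares against which the marker counts that follow also stand. Their mean log2 value was 8.24 to 8.61 in the control siRNA arrays and 8.31 to 8.49 in the PBS arrays. It was 8.60 to 9.26 in the Rab5 siRNA arrays, where replicate 1 was lowest, as for Scd2, Acsl3 and Acsl4. For Elovl1 replicate 2 was lowest, at 9.60, and replicate 1 stood at 9.75. Replicate 1 also lay nearest to the controls on the first principal component over all genes, so its low place is not particular to these genes. The defining markers Clec4f (0.30, adjusted p = 0.0706) and Timd4 (0.72, adjusted p = 0.027) were both well above the filter value in all groups. Leaving out Rab5 siRNA replicate 1, the lowest of its group for Scd2, Acsl3 and Acsl4, raises their mean change by construction. Without it Scd2 changed by 1.77 (adjusted p = 6.14e-07), Acsl3 by 1.20 (adjusted p = 0.000915) and Acsl4 by 0.95 (adjusted p = 0.000188). Of the hepatocyte markers 0 of 7 rose and 2 fell, of the endothelial markers 1 of 7 rose and 2 fell, and of the cholangiocyte markers 1 of 3 rose and 0 fell. Stellate cell markers had 2 of 10 up and 0 down, and lymphocyte markers 0 of 6 up and 1 down. The 3 measured adipocyte markers had 0 up and 1 down, the fall being that of Car3, which hepatocytes also express, and the defining fat cell gene Adipoq was too dim for the filter. The part of other cell types in these changes was not tested.

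**Figure D3:**
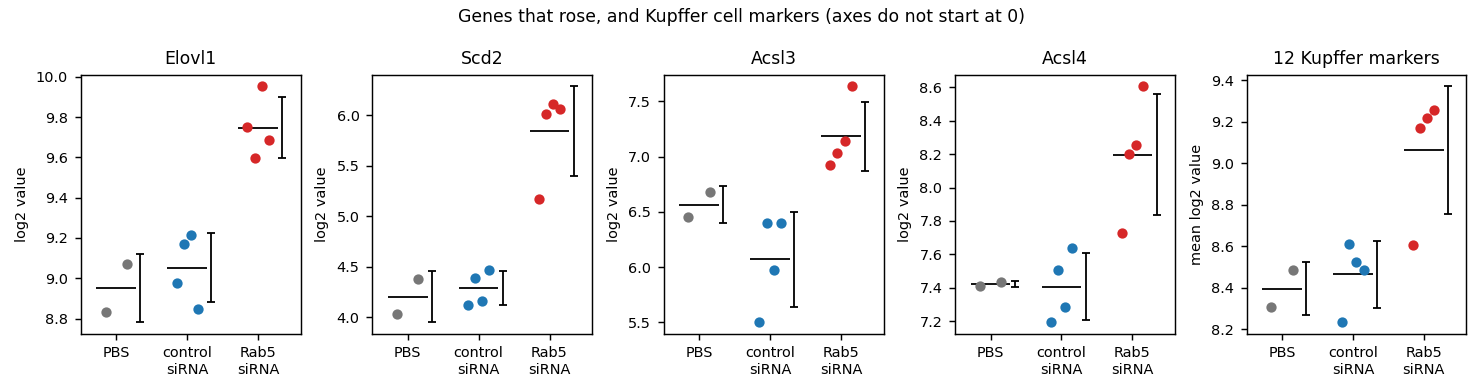
The first panels plot the log2 values of the genes that rose in the 10 arrays by group, and the last plots the mean log2 value of 12 Kupffer cell markers, with the group mean (line) and SD (bar, n = 2 for PBS and n = 4 for each siRNA group). All Rab5 siRNA arrays lie above the other arrays for the 4 genes, and Rab5 siRNA replicate 1, the leftmost of its group, is the lowest of the group for Scd2, Acsl3, Acsl4 and the markers.

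In glycerolipid assembly, 3 of 9 measured genes fell and 0 rose. Dgat2, which catalyses the last step of triglyceride synthesis, stood at 11.06, 10.94, 10.99 and 10.94 with control siRNA, 10.58, 10.19, 10.46 and 10.06 with Rab5 siRNA and 10.96 and 10.95 with PBS. Every Rab5 siRNA array lay below every array of both control groups, and the change was -0.66 (SE 0.115, adjusted p = 0.00102) against the control siRNA and -0.63 (SE 0.141, adjusted p = 0.00708) against PBS. The latter call ended without either PBS array (adjusted p = 0.0637 and 0.0558). Dgat1, the enzyme that catalyses the same step, differed by -0.22 (95% interval -0.48 to 0.04, adjusted p = 0.216). Agpat2, which adds the second acyl chain and whose loss causes lipodystrophy, stood at 10.40, 10.24, 10.34 and 10.46 with control siRNA, 10.08, 9.89, 10.10 and 9.89 with Rab5 siRNA and 10.63 and 10.62 with PBS. The Rab5 siRNA arrays were below all others, with a change of -0.37 (SE 0.0947, adjusted p = 0.0123) against the control siRNA and -0.64 (SE 0.116, adjusted p = 0.00182) against PBS. Without the arrays numbered 2, Agpat2 did not pass (-0.38, adjusted p = 0.052, with a range of 0.0031 to 0.052 over its alternatives).

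Lpin1, a phosphatidate phosphatase that also acts as a nuclear coactivator, had the largest SD of the 31 genes in both siRNA groups. It stood at 10.45, 9.48, 8.63 and 9.08 with control siRNA, 8.71, 8.23, 8.03 and 7.03 with Rab5 siRNA and 9.81 and 8.76 with PBS. The siRNA groups overlapped, and the SD was 0.778 with control siRNA and 0.709 with Rab5 siRNA (n = 4 each). Lpin1 changed by -1.41 (SE 0.393, adjusted p = 0.0195) against the control siRNA and by -1.28 (95% interval -2.32 to -0.25, adjusted p = 0.0898) against PBS. The first call was lost without control siRNA replicate 1 (-1.06, adjusted p = 0.0527), without Rab5 siRNA replicate 4 (-1.09, adjusted p = 0.0557) and without the arrays numbered 2 (-1.46, adjusted p = 0.0708), and its range over all alternatives was 0.000388 to 0.0708.

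The other assembly genes did not pass. Lpin2 differed by 0.05 (95% interval -0.34 to 0.45, adjusted p = 0.867) and Gpam, the mitochondrial enzyme that adds the first acyl chain, by -0.13 (95% interval -0.39 to 0.13, adjusted p = 0.47). Mogat1, which acylates monoacylglycerol, differed by 0.17 (95% interval -0.07 to 0.41, adjusted p = 0.291). Against PBS Mogat1 differed by 0.39 (adjusted p = 0.0675), and with the replicate number as a block by 0.47 (adjusted p = 0.0233). Pnpla3, a lipid droplet protein, differed by 0.10 (95% interval -0.17 to 0.37, adjusted p = 0.609). Agpat3 depended on the probe set: the one with the highest signal differed by 0.24 (SE 0.112, adjusted p = 0.203), while the other 3 differed by -0.21 (SE 0.11, adjusted p = 0.283), -0.44 (SE 0.133, adjusted p = 0.0476) and -0.40 (SE 0.138, adjusted p = 0.0822). With the most variable probe set standing for the gene, Agpat3 passed as a fall (-0.44, adjusted p = 0.0347, with a range of 0.0347 to 0.426 over its alternatives). In the fit of all probe sets the change of the dim Lpin3 was 0.05 (SE 0.0925, adjusted p = 0.792).

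**Figure D4:**
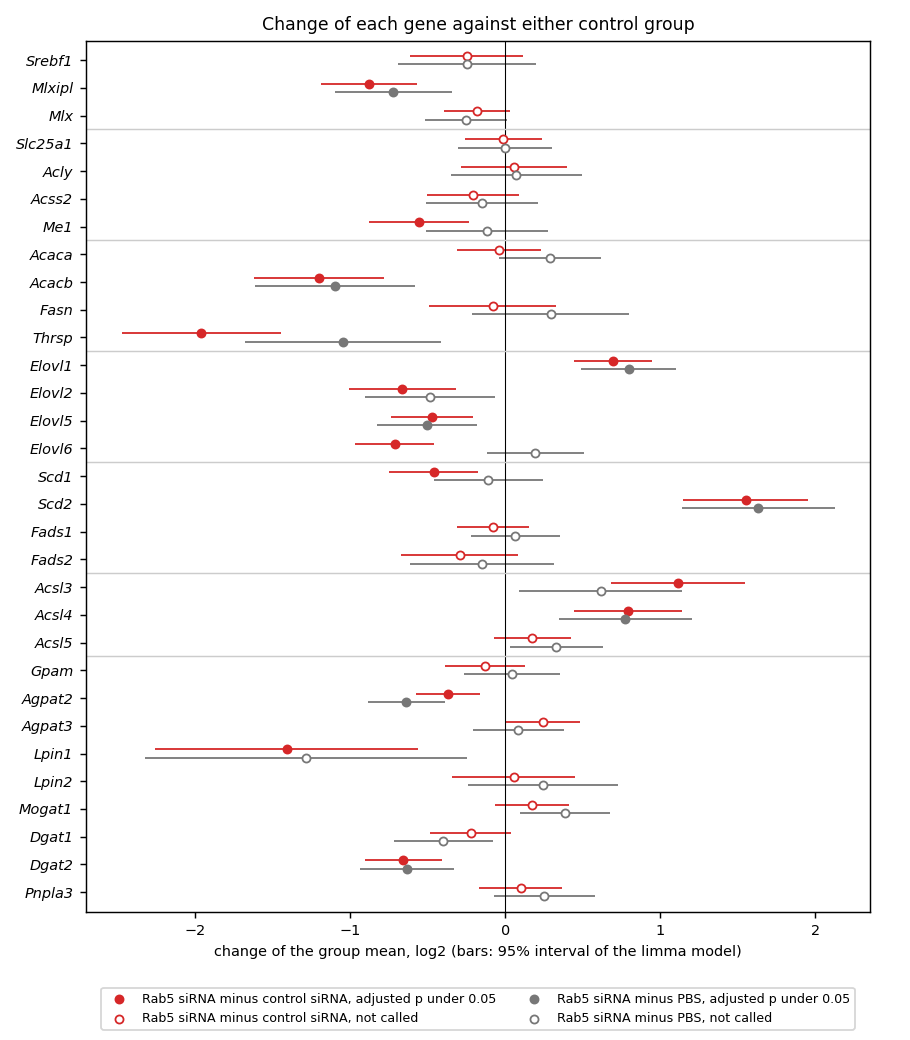
Points give the change of each gene on the log2 scale against the control siRNA (red) and against PBS (grey), filled where the adjusted p was under 0.05, and bars give the 95% interval of the limma model. The 2 estimates share the Rab5 siRNA arrays. They lie furthest apart for Thrsp (-1.96 and -1.05), Elovl6 (-0.71 and 0.19), Acsl3 (1.12 and 0.62) and Me1 (-0.56 and -0.12).

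A control siRNA in nanoparticles was compared with saline to see what the carrier and its RNA did. In limma 0 of the 31 genes were called for control siRNA minus PBS, as were 0 of all 12855 genes (0%). At an unadjusted p under 0.05 there were 5 of 31 genes, against 4.31% of all genes. These were Elovl6 (0.91, unadjusted p = 2.80e-05), Thrsp (0.91, 0.00815), Me1 (0.44, 0.032), Scd1 (0.35, 0.0497) and Agpat2 (-0.27, 0.0376), named after their values were seen. Elovl6, Thrsp, Me1 and Scd1 were higher with control siRNA than with PBS, and Agpat2 was lower. The median difference of the 31 genes was 0.13, and that of all genes -0.01. Elovl6 passed with quantile normalization (0.96, adjusted p = 0.0403), with array weights (0.93, adjusted p = 0.0427) and without control siRNA replicate 1 (1.00, adjusted p = 0.0439), within a range of 0.0403 to 1 over its alternatives.

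Rab5 siRNA minus PBS, which shares the Rab5 siRNA arrays with the main comparison, called 9 of the 31 genes, 6 down and 3 up, where 17.1% of all genes were called, 7.59% down and 9.53% up. The median change of the 31 genes was 0.00 and that of all genes 0.01. With PBS replicate 2 as the only saline array, 3 genes were called, 1 down and 2 up, and the call of Elovl5 (adjusted p = 0.367) was among those lost. In fits with 1 PBS array the spread comes from the siRNA groups, and the lone array is assumed to vary as they do. Elovl5 also lost this call without Rab5 siRNA replicate 2 or 3 (adjusted p = 0.0768 and 0.0786) and without the arrays numbered 2 (0.102). Conversely, Acsl3, Lpin1 and Mogat1 passed against PBS without control siRNA replicate 1 (adjusted p = 0.0441, 0.0419 and 0.0438), Elovl2 without PBS replicate 2 (0.0376) and Dgat1 without Rab5 siRNA replicate 3 (0.0449). With 2 PBS arrays the comparison is less precise than the one between the siRNA groups, and a gene that did not pass here is not shown to equal PBS.

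The probe sets of a gene mostly went one way. The 32 genes had 71 probe sets, of which 58 passed the filter. In a fit of all 45037 probe sets without the filter, 18 of the 71 were called down and 9 up. Of all probe sets 10.9% were called in either direction, but these include many too dim for the filter. Here all 18 called down and 8 of those called up had passed it. The 10.9% is therefore not a like background, and its split into down and up was not counted. No gene had probe sets called in opposite directions, and 8 genes had at least 1 called and 1 that was not. All 3 Thrsp probe sets fell, by -1.96 (SE 0.229, adjusted p = 4.30e-05), -1.50 (SE 0.182, adjusted p = 5.83e-05) and -0.49 (SE 0.146, adjusted p = 0.0456). Both probe sets of Me1, Lpin1 and Dgat2 fell, and all 4 of Elovl1 rose, 1 of them below the filter. The second Elovl5 probe set was just short of the threshold at -0.45 (SE 0.138, adjusted p = 0.0507).

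**Figure D5:**
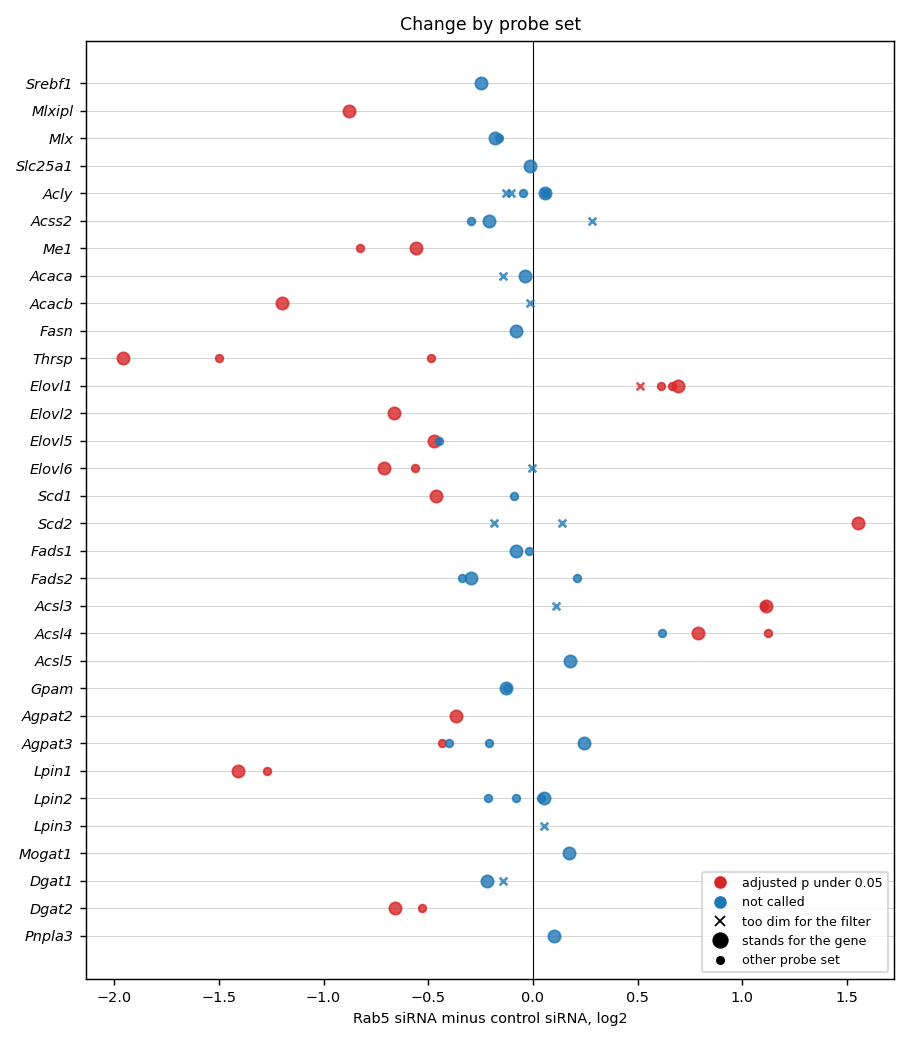
Each symbol is a probe set, placed by its log2 change (Rab5 siRNA minus control siRNA) on the line of its gene, red where the adjusted p over all probe sets was under 0.05 and a cross where it was too dim for the filter. Probe sets of Thrsp, Me1, Lpin1 and Dgat2 lie to the left of 0 and those of Elovl1 to the right, while those of Agpat3 and Fads2 lie on both sides.

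Other genes of the pathway moved in both directions. Of 63 measured genes in 5 further lists, Elovl7 passed the filter only through its Rab5 siRNA arrays and is left out of the counts. Of the other 62, 11 rose and 11 fell against the control siRNA, where 13.8% of all genes rose and 9.51% fell, a background that also holds for the lists below. Without the arrays numbered 2, 15 of the 63 were called, 8 up and 7 down, and the share of all genes called in that fit was not counted.

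In the list of factors that control the lipogenic regulators, 3 of 17 rose and 3 fell. Ppargc1b, a coactivator of SREBP-1, changed by -0.77 (SE 0.14, adjusted p = 0.00136), and Mlycd, which breaks down malonyl-CoA, by -0.50 (SE 0.122, adjusted p = 0.00878). Insig1 and Insig2, which hold SREBP in the endoplasmic reticulum, rose by 0.60 (SE 0.128, adjusted p = 0.00418) and 0.55 (SE 0.174, adjusted p = 0.0372). Insig1 was lower with control siRNA than with PBS (a difference of -0.44), and differed from PBS by 0.16 (adjusted p = 0.568) with Rab5 siRNA. Ppargc1b was higher with control siRNA than with PBS (0.38), and its change against PBS was -0.39 (adjusted p = 0.146). Insig2 differed from PBS by 0.36 (adjusted p = 0.298), while Mlycd was called against PBS too (-0.62, adjusted p = 0.0107).

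Glucose entry and NADPH supply had 2 of 7 genes up and 2 down. Pgd, which yields NADPH in the pentose phosphate pathway, rose from 9.28 ± 0.194 to 10.60 ± 0.161 (SD, n = 4 each). The difference was 1.33 (SE 0.118, adjusted p = 6.08e-06). Khk, the first enzyme of fructose use, changed by -1.19 (SE 0.164, adjusted p = 0.000171), the liver pyruvate kinase Pklr by -0.70 (SE 0.2, adjusted p = 0.0218), and the citrate synthase Cs by 0.33 (SE 0.0945, adjusted p = 0.0225). The siRNA groups of Pklr overlapped. Against PBS, Pklr (-0.42, adjusted p = 0.289) and Cs (0.26, adjusted p = 0.157) did not pass, while Khk (-1.01, adjusted p = 0.00327) and Pgd (1.36, adjusted p = 3.12e-05) did.

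Of the other elongation and desaturation genes 2 of 10 rose and 1 fell. Elovl3, an elongase expressed more in male than in female mouse liver, fell from 10.69 ± 0.154 to 8.20 ± 0.687 (SD, n = 4 each). The difference was -2.49 (SE 0.265, adjusted p = 2.29e-05). Hacd2, a dehydratase of the elongation cycle, rose by 0.72 (SE 0.102, adjusted p = 0.000205), and the desaturase homologue Fads3, dim in controls, by 0.54 (SE 0.137, adjusted p = 0.0122). The elongase Elovl7 was below the filter value in all PBS and control siRNA arrays (3.80 to 4.31) and stood at 4.33, 4.34, 4.59 and 5.28 with Rab5 siRNA.

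Other activation and glycerolipid genes had 2 of 14 up and 3 down. The membrane phosphatidate phosphatases Plpp2 and Plpp1 rose by 1.15 (SE 0.122, adjusted p = 2.35e-05) and 0.61 (SE 0.0911, adjusted p = 0.000326). The monoacylglycerol lipase Mgll changed by -1.14 (SE 0.176, adjusted p = 0.000401), and Gpat4, which adds the first acyl chain in the endoplasmic reticulum, by -0.72 (SE 0.151, adjusted p = 0.00374).

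In the phospholipid branch, which shares diacylglycerol or phosphatidate with triglyceride synthesis, 2 of 14 genes rose and 2 fell. Chpt1, which makes phosphatidylcholine from diacylglycerol, fell from 9.74 ± 0.104 to 8.08 ± 0.146 (SD, n = 4 each). The difference was -1.65 (SE 0.106, adjusted p = 5.60e-07). The choline kinase Chka rose from 6.31 ± 0.0978 to 7.81 ± 0.161 (SD, n = 4 each). The difference was 1.50 (SE 0.102, adjusted p = 8.52e-07). Pemt, which makes phosphatidylcholine by methylation, changed by -0.37 (SE 0.122, adjusted p = 0.0443), and Cds2, which draws phosphatidate towards phosphatidylinositol, by 0.40 (SE 0.113, adjusted p = 0.02).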

How the data were processed

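The deposited table holds log2 values per probe set. Per the submitters' processing notes, which give no order, the authors used Affymetrix Expression Console, RMA and Partek 6.6. RMA equalises the distributions of the arrays, so a shift of all transcripts in a group would not be seen. Detection calls, the genome build and scan batches are not given in the sources used here, and precision is limited by how many arrays there are. The labels number the livers of a group without saying in words that each is a separate mouse, and the p-values cover no more than the spread among these arrays, which may be technical.

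Probe sets with 1 symbol in the platform annotation (34945) were kept if they lay above the median of the table (4.33) in at least 2 arrays. Each gene was represented by its brightest kept probe set. All 31 genes of the set that passed would have done so without the Rab5 siRNA arrays. The 3 group means were estimated from all 10 arrays for 12855 genes with limma 3.58.1 in R 4.3.3, tested beforehand on simulated data, and genes were called at a Benjamini-Hochberg adjusted p under 0.05. Intervals are 95% intervals of that model.

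All genes of the set were named. Of each further list, up to 4 called genes with the largest change were named. Values in every array were given for the called genes, for the 6 with the highest mean signal and, added after values were seen, for Srebf1 and Fasn. The set and all lists were chosen with earlier results of these data known.

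Deviations from the group means of same-numbered control and Rab5 siRNA arrays correlated across genes (r = 0.39, 0.15, 0.19 and 0.31), each above 0.1. Differently numbered arrays had r from -0.33 to 0.20, with 2 of these pairs above the 0.15 of the arrays numbered 2. The replicate number in the titles was used as a block in an alternative only, and the main fit had no block. The block also joined the PBS arrays to siRNA arrays of the same number, a pairing that was not checked. Alternatives covered the choice of probe set, the filter, the scaling, the arrays in the fit, array weights, a trended variance, the replicate block and leaving out arrays. Promoter windows, 1 per gene, were the first listed in the RefSeq table.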

Additional observations from a re-analysis of the deposited data

Results flagged for a closer look

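Over 62 groups of 4 arrays (31 genes in either siRNA group), 6 held an array whose gap to its nearest neighbour as a share of the range exceeded Dixon's critical value at the 95% level. Chance gives about 1 in 20. Control siRNA replicate 1 was such an array for 3 genes, being lowest at 8.40 for Srebf1 (the others at 9.00 or more), at 7.88 for Acaca (next 8.21) and at 8.13 for Elovl6 (next 8.49). Control siRNA replicate 3 was highest for Slc25a1, at 9.73 (next 9.57). In the Rab5 siRNA group, replicate 1 was lowest for Scd2, at 5.17 (next 6.01), and replicate 4 was highest for Gpam, at 10.45 (next 10.10).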

How the results depend on the processing

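Of the 15 called genes, 9 remained called under every alternative that tested them (Mlxipl, Acacb, Thrsp, Elovl1, Elovl6, Scd2, Acsl3, Acsl4 and Dgat2). Scd2 was not tested with the filter at the 75th percentile, where 28 genes were tested and 14 called (3 up and 11 down). Me1, Elovl2, Elovl5, Scd1, Agpat2 and Lpin1 lost the call under at least 1, as given beside them, and Fads2 (array weights) and Agpat3 (most variable probe set) gained one. In the main comparison the count of called genes was 9 without the arrays numbered 2 of the siRNA groups, a fit with fewer arrays, 5 when a change of at least 2-fold was also asked for, and 13 to 15 when single arrays were left out. For control siRNA minus PBS, 1 gene was called with quantile normalization, 1 with array weights, and 0 to 1 when single arrays were left out. For Rab5 siRNA minus PBS the count was 3 to 12 when single arrays were left out (3 without PBS replicate 1) and 3 with a 2-fold change asked for. Of the 63 genes in the further lists (23 called, Elovl7 included), 15 were called without the arrays numbered 2, 7 with a 2-fold change, and 17 to 27 when single arrays were left out. With the replicate number as a block, 15 genes of the set (4 up and 11 down, with no call changed), 27 of the further lists and 30 probe sets were called against the control siRNA, and 10 genes against PBS and 0 for control siRNA minus PBS. The calls of probe sets ran from 19 to 28 when single arrays were left out. Among all 12855 genes, a call with a change of at least 2-fold was made for 325 up and 171 down in the main comparison. Against PBS it was made for 357 up and 197 down. For the other alternatives the share of all genes called was not counted. Of 648 recomputed changes, 617 kept their direction and side of the threshold and 15 changed sign. Leaving out single arrays moved Slc25a1 from -0.0792 to 0.0919, Acly from -0.117 to 0.185, Acaca from -0.131 to 0.0633, Fasn from -0.227 to 0.0794, Lpin2 from -0.109 to 0.158 and Pnpla3 from -0.0109 to 0.199, ranges that span 0. The other changes of sign were Slc25a1 with median centring (0.0154), Acly (-0.0466) and Agpat3 (-0.436) with the most variable probe set, Agpat3 (-0.20) and Lpin2 (-0.0511) with the probe sets averaged, and Fasn without the arrays numbered 2 (0.0203). Of these genes 0 were called in the main comparison, and the cause was not tested. Without detection calls, changes of dim probe sets (Scd2, Mogat1, Pnpla3) have no measured background.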

Other observations

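A few livers were often the lowest or highest of their group in these genes. The same counts over all genes were not made, so they have no background beside them. On the first principal component over all genes, control siRNA replicate 1 also stood apart, at -25.0 against -17.0 to -15.9. Rab5 siRNA replicates 4 (38.3) and 1 (17.5) were the extremes of their group there. The places of these arrays are thus not shown to be particular to these genes. Control siRNA replicate 1 held the lowest value of its group for 18 of the 31 genes, Thrsp (9.55), Acly (9.63) and Fasn (8.69) among them, and the highest for 6, among them Lpin1 (10.45). In the Rab5 siRNA group, replicate 4 was lowest for 15 genes, among them Mlxipl (8.11), Srebf1 (8.28), Fasn (8.56), Lpin1 (7.03) and Dgat2 (10.06), and replicate 1 was highest for 15. The mean of the 31 genes relative to the control siRNA mean was -0.30 in Rab5 siRNA replicate 4 and -0.10 in replicate 1, -0.11 in control siRNA replicate 1 and 0.01 to 0.07 in the other controls. In the PBS livers it was -0.05 and -0.21. The PBS livers differed from each other in Lpin1 (9.81 and 8.76), Fads2 (10.22 and 9.46), Elovl2 (10.20 and 9.56) and Me1 (8.79 and 8.17), genes chosen after their values were seen, while Dgat2 (10.96 and 10.95) and Agpat2 (10.63 and 10.62) were close.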
